A study of Mus musculus with 23 samples.

Results

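A set of 10 genes that mark the zones of the liver lobule or respond to canonical Wnt signaling was measured in the control liver, the pre-metastatic liver, and the primary tumor: *Glul*, *Oat*, *Slc1a2*, *Rhbg*, *Lect2*, *Lgr5*, *Rnf43*, *Znrf3*, *Axin2*, and *Tbx3*. They were taken by gene symbol from the expression table, in which all 10 are among 48895 symbols. The rule uses the symbol alone, not a measured value, but the members were chosen with earlier results of these data known. The mice were male BALB/c animals of 4 to 6 weeks. The tumor-bearing group had CT26 cells, a colon carcinoma line from the same strain, injected orthotopically into the wall of the cecum, and the sham-operated group was given RPMI culture medium without serum in their place. At 3 weeks, the pre-metastatic liver and the matched primary tumor were taken from each of 9 tumor-bearing mice, and the control liver from 5 sham-operated mice. CT26 is a single established line, so the tumors are replicate grafts of 1 line and not independent cancers. All tissue was bulk tissue, and RNA was sequenced after poly(A) selection.

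In the liver lobule, blood flows from the portal tract to the central vein, and hepatocytes differ along that path. Wnt ligands and R-spondins released by endothelial cells of the central vein stabilize beta-catenin in the hepatocytes next to it, and genes such as *Glul*, *Oat*, *Slc1a2*, *Rhbg*, *Lect2*, *Axin2*, and *Tbx3* are known targets there. Periportal hepatocytes carry out urea synthesis and gluconeogenesis. *Rnf43* and *Znrf3* encode membrane ubiquitin ligases that remove Wnt receptors, and *Lgr5* encodes a receptor for R-spondins, which hold those ligases in check.

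Promoter windows of 4 members are shown because these genes took different courses in the livers: *Oat* fell, *Glul* did not pass the test, *Lect2* rose, and *Slc1a2* differed between the clock phases of the mice. Each is the RefSeq window of the assembly GRCm38.p6, from 250 bases before to 50 bases after an annotated start, read 5′ to 3′ on the strand of the gene. Capitals mark a match to a TCF/LEF word, the letters that the DNA-binding partners of beta-catenin are known to prefer. The windows lie at chr7:132576349-132576648 on the minus strand for *Oat*, chr1:153899679-153899978 on the plus strand for *Glul*, chr13:56548489-56548788 on the minus strand for *Lect2*, and chr2:102706188-102706487 on the plus strand for *Slc1a2*.
Oat: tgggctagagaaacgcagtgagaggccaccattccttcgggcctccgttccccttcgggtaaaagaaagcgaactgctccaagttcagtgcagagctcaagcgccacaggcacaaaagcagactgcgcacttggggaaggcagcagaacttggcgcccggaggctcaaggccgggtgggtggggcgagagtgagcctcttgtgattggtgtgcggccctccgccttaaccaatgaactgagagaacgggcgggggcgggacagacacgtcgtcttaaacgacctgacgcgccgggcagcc
Glul: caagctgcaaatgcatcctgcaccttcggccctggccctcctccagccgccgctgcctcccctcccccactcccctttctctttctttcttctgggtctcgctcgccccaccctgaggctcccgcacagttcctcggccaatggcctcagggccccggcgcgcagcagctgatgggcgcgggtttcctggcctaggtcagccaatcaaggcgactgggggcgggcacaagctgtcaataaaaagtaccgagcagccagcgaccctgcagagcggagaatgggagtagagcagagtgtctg
Lect2: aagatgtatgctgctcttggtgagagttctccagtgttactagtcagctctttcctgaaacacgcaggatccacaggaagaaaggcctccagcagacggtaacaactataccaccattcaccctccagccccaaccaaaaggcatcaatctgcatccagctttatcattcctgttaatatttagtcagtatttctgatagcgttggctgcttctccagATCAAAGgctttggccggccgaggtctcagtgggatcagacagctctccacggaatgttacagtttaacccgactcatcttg
Slc1a2: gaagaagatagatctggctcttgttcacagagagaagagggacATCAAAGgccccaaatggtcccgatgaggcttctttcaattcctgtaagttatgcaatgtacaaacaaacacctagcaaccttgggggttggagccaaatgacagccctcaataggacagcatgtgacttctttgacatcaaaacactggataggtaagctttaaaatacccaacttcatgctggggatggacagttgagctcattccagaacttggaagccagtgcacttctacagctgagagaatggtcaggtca
The search, on both strands, used the word CTTTGAT and 3 variants that end in AA, TA, or TT in place of AT. A match was found in 2 of the 7 windows that RefSeq gives for 6 of the members, where 16.9% of all 32851 windows hold one. Both matches are ATCAAAG, at position -32 from the start in *Lect2* and at -207 in *Slc1a2*. The *Slc1a2* window belongs to an internal start, inside the locus that the expression table gives for the gene (chr2:102658594-102790784). The E-box CACGTG, a word bound by clock factors, was in 0 of the 7 windows (7.15% of all windows), and the D-box, spelled TTATGTAA or TTACGTAA, was also in 0 (1.06%). *Rhbg*, *Lgr5*, *Znrf3*, and *Tbx3* have no window in the table used.

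Total counts ranged from 44587556 to 79773163 per library, and the group medians from 55500961 to 56982650. Levels are given as RPKM, the count per kilobase of gene and scaled to the library total, and changes as log2 fold changes with their standard error (SE) from edgeR on the raw counts, with *p* values adjusted over all genes tested. The livers fell into 2 clock phases by an index of *Dbp*, *Per3*, and *Ciart* against *Arntl*, *Npas2*, and *Clock*: 1 of 5 control livers and 4 of 9 pre-metastatic livers were late, and the others early, with mouse M7 close to the border (index -0.062). Markers of hepatocytes (6 genes), stellate cells (6), smooth muscle (5), and the central vein endothelium (4) gave 0 calls between the livers, with 2, 0, 0, and 0 genes at an unadjusted *p* under 0.05, and 2, 0, 0, and 0 called by DESeq2. Markers were higher in pre-metastatic liver for leukocytes (6 of 7), Kupffer cells (4 of 4), red cells (3 of 3), bile duct cells (3 of 5), fibroblasts (2 of 4), and endothelium (1 of 7). The summed RPKM of the 7 leukocyte markers was 32.9 to 62.1 in control liver and 73.1 to 319 in pre-metastatic liver, without overlap, and that of the 6 hepatocyte markers was 44315 to 55575 and 32868 to 65293. Of 5 intestinal epithelium markers tested, 2 were higher and 1 was lower. *Cdx1* was at 0 in every control liver and was the only marker at 0 throughout a liver group, and the part of these shifts in the results for the 10 genes was not tested.

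Between the livers, the pericentral and Wnt target genes did not move together. *Oat*, *Tbx3*, *Axin2*, and *Rnf43* were lower in pre-metastatic liver, *Lect2* and *Rhbg* were higher, and *Glul*, *Slc1a2*, *Lgr5*, and *Znrf3* did not pass the test. The 6 calls among 10 genes stand beside a background of 31.0% of the 16987 genes tested, with 13.3% of genes called lower and 17.7% called higher. The 10 genes were chosen with earlier results of these data known. Values did not overlap between the groups for 2 of the 10 genes, beside 10.9% of all genes. Because the tissue was bulk, fewer cells of a type and less RNA per cell cannot be told apart.

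**Figure D1:**
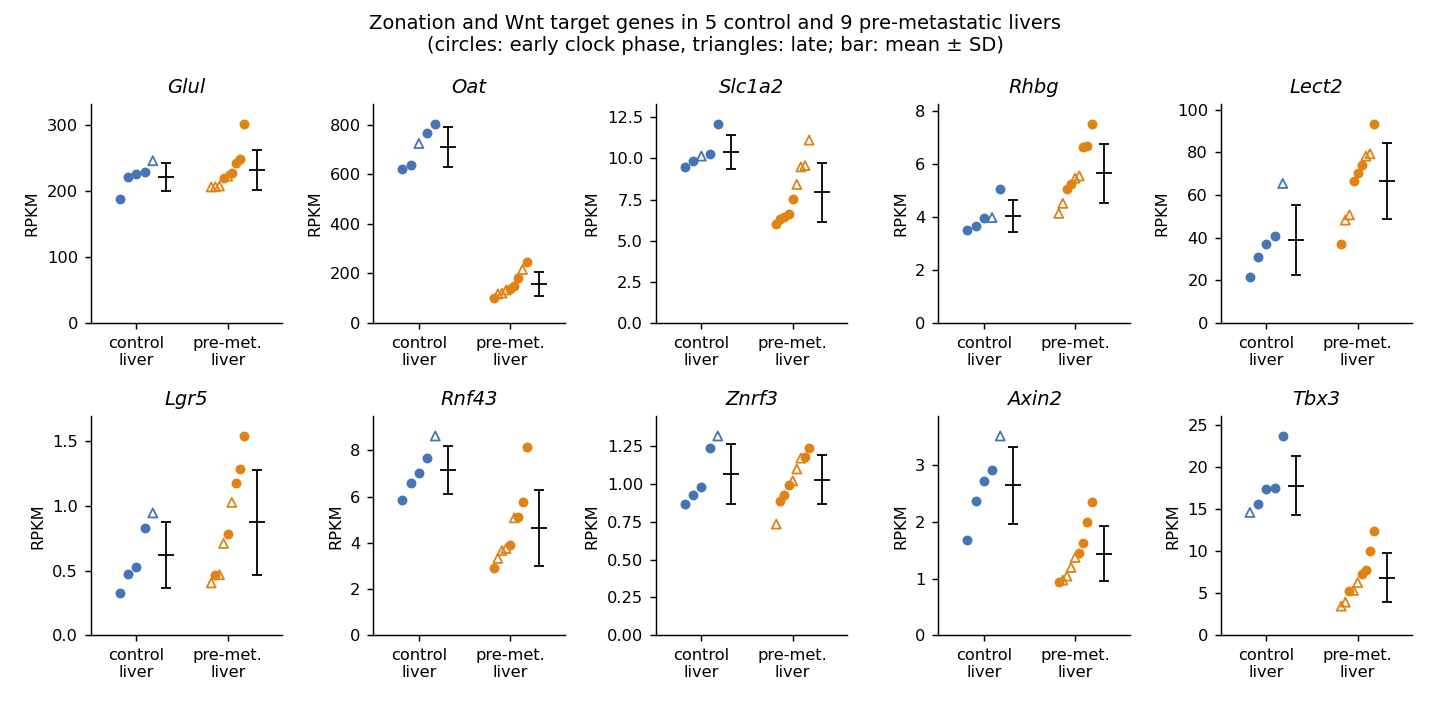
RPKM of each gene (y axis, linear from 0) in 5 control and 9 pre-metastatic livers; points are libraries, circles early and triangles late in clock phase, and the bars give the mean ± SD. *Oat* and *Tbx3* are the 2 genes whose groups do not overlap.

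*Oat* (chr7:132557475-132576398) encodes ornithine aminotransferase, which turns ornithine toward glutamate in pericentral hepatocytes. Its level in the control livers was 624, 768, 636, 805, and 725 RPKM for mice C1, C4, C5, C6, and C7, and it ran from 102 (M6) through a median of 137 to 246 (M5) in pre-metastatic liver. Every pre-metastatic liver was below every control liver. The mean fell from 712 ± 80.0 (SD, n = 5) to 156 ± 48.5 RPKM (SD, n = 9), a log2 fold change of -2.13 ± 0.14 (SE, edgeR adjusted *p* = 1.31e-06), or 22.8% of the control level. By the exact two-sided rank-sum test, *p* was 0.000999, the smallest that 9 against 5 livers allow.

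*Glul* (chr1:153899929-153909723) encodes glutamine synthetase, which in the healthy lobule is confined to the hepatocytes bordering the central vein. The control livers gave 187, 225, 228, 222, and 246 RPKM in the order of the mice above, and the pre-metastatic livers ran from 206 (M12) through a median of 223 to 302 (M5). The groups overlapped, and the log2 fold change was 0.15 ± 0.09 (SE, edgeR adjusted *p* = 0.25), with a 95% interval from -0.05 to 0.34. Per gene length, *Oat* was above *Glul* in 5 of 5 control livers, by 2.79 to 3.63 times, and below it in 9 of 9 pre-metastatic livers, where the ratio was 0.413 to 0.970.

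Of the transport genes and the secreted factor, *Rhbg* and *Lect2* rose and *Slc1a2* did not pass. *Slc1a2* (chr2:102658594-102790784), which encodes a glutamate transporter, was at 9.47, 9.86, 12.1, 10.3, and 10.1 RPKM in the control livers, and from 6.03 (M7) through 7.51 to 11.1 (M2) in pre-metastatic liver. Its groups overlapped, and the change was -0.30 ± 0.14 on the log2 scale (SE, edgeR adjusted *p* = 0.121; 95% interval -0.60 to 0.00). *Rhbg* (chr3:88242874-88254740) encodes an ammonium transporter of pericentral hepatocytes. Its control values were 5.05, 3.53, 3.97, 3.66, and 3.99 RPKM, and the pre-metastatic livers ran from 4.14 (M1) through 5.47 to 7.54 (M8). Only control mouse C1 reached into the pre-metastatic range, and *Rhbg* rose by 0.56 ± 0.15 (SE, edgeR adjusted *p* = 0.0114). *Lect2* (chr13:56528959-56548563) encodes a factor that hepatocytes secrete and that attracts neutrophils. It was at 21.7, 40.6, 30.9, 36.8, and 65.4 RPKM in control liver, where the late-phase mouse C7 was highest, and from 37.0 (M6) through 70.3 to 93.5 (M5) in pre-metastatic liver. The ranges overlapped, and the rise was 0.84 ± 0.21 on the log2 scale (SE, edgeR adjusted *p* = 0.00731). The opposite-strand gene *Fbxl21* overlaps *Lect2* but held 10 to 100 counts in the livers, beside 2839 to 11516 for *Lect2*. Whether the counting used the strand is not given in the sources used here.

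Of the genes of Wnt feedback and response, *Tbx3* (chr5:119670319-119684724), a transcriptional repressor of the T-box family, changed most. Its control values were 17.4, 15.6, 23.7, 17.6, and 14.6 RPKM, and those in pre-metastatic liver ran from 3.47 (M1) through 6.27 to 12.4 (M6). The groups did not overlap, and *Tbx3* fell to 41.1% of the control level (log2 fold change -1.28 ± 0.26 SE, edgeR adjusted *p* = 0.00194). *Axin2* (chr11:108917828-108950783) encodes a scaffold of the complex that degrades beta-catenin, and is a common readout of the pathway. It was at 2.37, 2.92, 1.69, 2.72, and 3.51 RPKM in control liver and from 0.939 (M7) through 1.37 to 2.35 (M5) in pre-metastatic liver. The lowest control, C5, lay inside the pre-metastatic range, and the change was -0.80 ± 0.20 (SE, edgeR adjusted *p* = 0.00804).

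The paired ubiquitin ligases parted. *Rnf43* (chr11:87663087-87735539) was at 5.86, 7.0, 7.66, 6.58, and 8.62 RPKM in control liver and from 2.93 (M8) through 3.92 to 8.16 (M5) in pre-metastatic liver, with a log2 fold change of -0.55 ± 0.18 (SE, edgeR adjusted *p* = 0.0261). In pre-metastatic liver, only M5 exceeded 4 of the 5 controls. *Rnf43* no longer passed without control mouse C5 (-0.53) or C7 (-0.49). *Znrf3* (chr11:5276329-5444847) was at 0.865, 1.23, 0.925, 0.977, and 1.31 RPKM in control liver and from 0.734 (M10) through 1.02 to 1.23 (M6) in pre-metastatic liver, and its change was 0.04 ± 0.14 (SE, edgeR adjusted *p* = 0.848; 95% interval -0.25 to 0.33). The difference between these 2 genes was not tested. *Lgr5* (chr10:115450314-115587780), the least expressed member, was at 0.527, 0.473, 0.828, 0.328, and 0.947 RPKM in control liver and from 0.406 (M12) through 0.787 to 1.54 (M5) in pre-metastatic liver. Its 79 to 483 counts per liver gave a change of 0.55 ± 0.32 (SE, edgeR adjusted *p* = 0.204), with a 95% interval from -0.12 to 1.23.

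**Figure D2:**
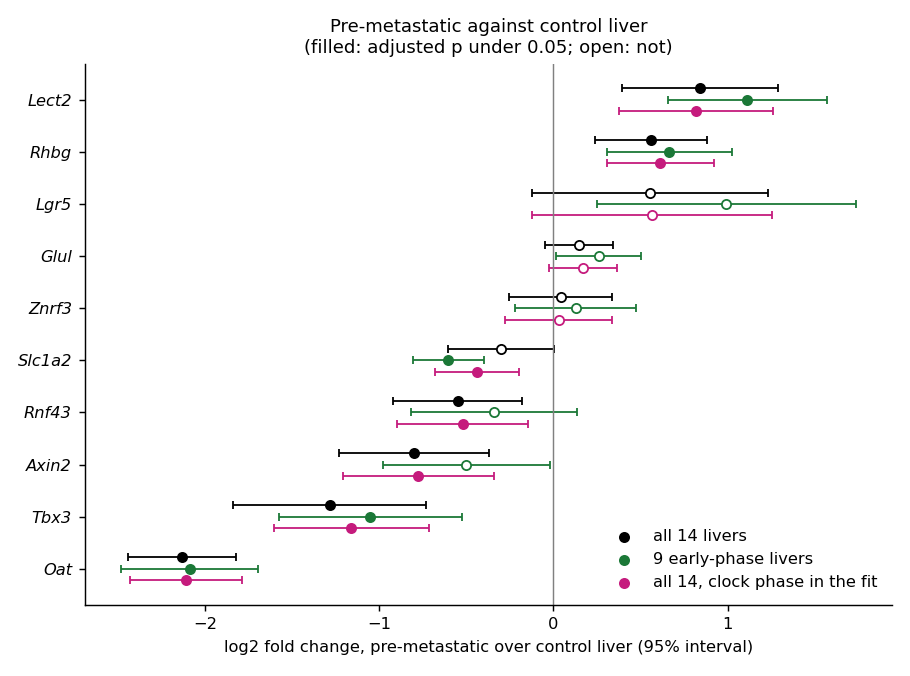
Log2 fold change of each gene between pre-metastatic and control liver (x axis) with its 95% interval, from all 14 livers (black), from the 9 early-phase livers (green), and from all 14 with clock phase in the fit (magenta); filled points passed an adjusted *p* of 0.05. *Oat* lies at -2.13, -2.09, and -2.11 in all 3 fits, and *Slc1a2* is filled in the fits that take the phase into account.

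The values were also compared between clock phases, which were read from clock genes in the same livers, so a phase difference is an association. Among the 9 pre-metastatic livers, *Slc1a2* was at 6.03 to 7.51 RPKM in the 5 early livers and at 8.42 to 11.1 in the 4 late ones, without overlap. The late livers were higher by 0.56 ± 0.10 on the log2 scale (SE, edgeR adjusted *p* = 0.0208), beside 1.74% of 16700 genes called for phase, and none of the other 9 genes passed. In the 4 early control livers, *Slc1a2* was at 9.47 to 12.1 RPKM, so early livers of the 2 groups did not overlap, and C7, the late control, was at 10.1. In early livers alone, the change between groups was -0.60 (95% interval -0.81 to -0.40) and passed the test, and it also passed with phase as a covariate in all 14 livers (-0.44).

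**Figure D3:**
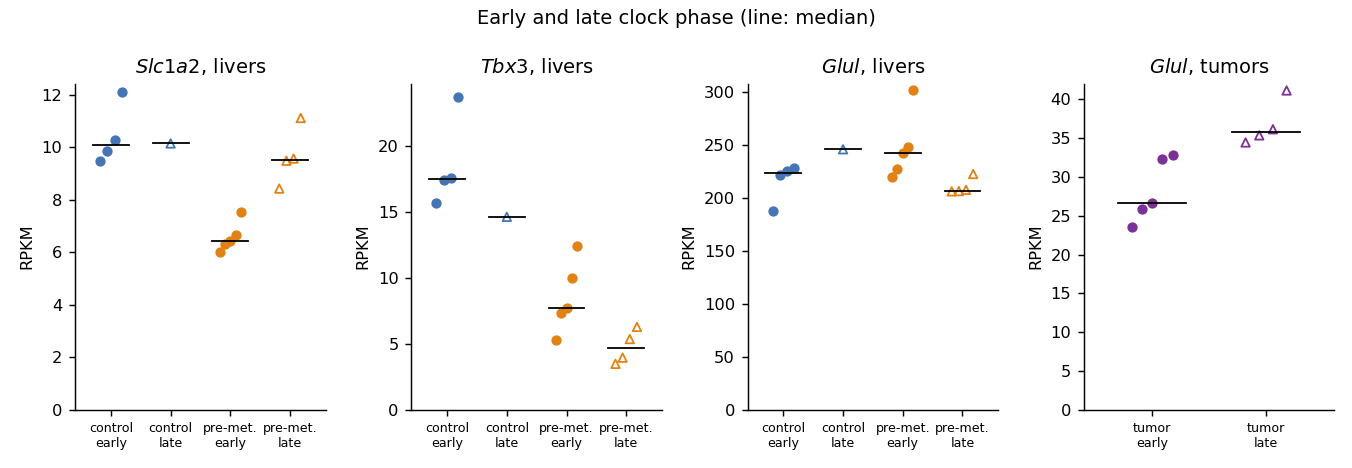
RPKM (y axis, linear from 0) of *Slc1a2*, *Tbx3*, and *Glul* in the livers and of *Glul* in the tumors, by clock phase of the mouse's liver; points are libraries and lines are medians. Early and late pre-metastatic livers do not overlap for *Slc1a2*, and early and late tumors do not overlap for *Glul*.

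Within the early livers, 5 of the 10 genes passed, beside 25.1% of all genes. *Oat* (-2.09), *Tbx3* (-1.05), *Lect2* (1.11), and *Rhbg* (0.67) passed as before, and *Axin2* (-0.50) and *Rnf43* (-0.34) did not. For *Tbx3*, the 4 late pre-metastatic livers held 3.47 to 6.27 RPKM and the 5 early ones 5.26 to 12.4, and the difference between phases was -0.83 ± 0.28 (SE, edgeR adjusted *p* = 0.192). Late control liver is a single animal, so the groups could not be compared within the late phase.

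The ligands that act on these hepatocytes did not pass the test. *Wnt2*, *Wnt9b*, and *Rspo3*, which central vein endothelium releases, and *Thbd*, which encodes thrombomodulin, make up the list of 4 central vein endothelial markers and are named for that reason, after their values were seen. *Wnt2* was at 0.479 ± 0.214 RPKM (SD, n = 5) in control and 0.533 ± 0.250 (SD, n = 9) in pre-metastatic liver, and *Rspo3* at 2.09 ± 0.468 and 1.65 ± 0.548. Their log2 fold changes were 0.22 ± 0.37 and -0.28 ± 0.23 (SE), and those of *Wnt9b* and *Thbd* were 0.16 ± 0.30 and 0.12 ± 0.28. Of 25 ligands, R-spondins, and secretion genes, 12 were tested, of which 1 rose and 1 fell, beside 31.0% of all genes called. *Wls*, whose product carries Wnt ligands to the cell surface, rose by 1.04 ± 0.20, and *Porcn*, which encodes the enzyme that attaches their lipid, changed by -0.46 ± 0.14.

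Among Wnt receptors, transducers, and antagonists, 5 of 13, 3 of 19, and 5 of 12 genes were called, in both directions, beside a background of 31.0%. Of 13 receptors tested, 3 rose and 2 fell: *Lgr4*, a relative of *Lgr5*, went from 6.16 ± 1.17 to 10.1 ± 2.11 RPKM (log2 fold change 0.79 ± 0.16), the co-receptor *Lrp6* rose by 0.56 ± 0.15, and the frizzled genes *Fzd6* and *Fzd5* changed by 1.14 ± 0.29 and -1.01 ± 0.25. Of 19 genes of the beta-catenin complex, 2 rose and 1 fell. *Ctnnb1*, which encodes beta-catenin itself, went from 59.7 ± 5.64 to 72.1 ± 8.98 RPKM (0.35 ± 0.08), the transcription factor gene *Tcf7* rose by 1.41 ± 0.44, and the co-activator gene *Bcl9l* changed by -0.84 ± 0.18. Of 12 antagonists, 4 rose and 1 fell. The gene that fell was *Notum*, a feedback target whose product strips the lipid from Wnt ligands, from 12.9 ± 3.31 to 7.03 ± 1.32 RPKM (-0.79 ± 0.16), and *Sfrp1* and *Amer1* rose by 1.82 ± 0.38 and 0.91 ± 0.23. *Sfrp2*, at 0 to 4 counts in control liver, was too low there for a fold change. Of 9 further Wnt targets, *Sp5* fell (-0.78 ± 0.17), and *Ccnd1* and *Cd44* rose (2.40 ± 0.42 and 1.37 ± 0.19). Leukocyte markers were higher in the same livers (6 of 7), and their part in these values was not tested.

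**Figure D4:**
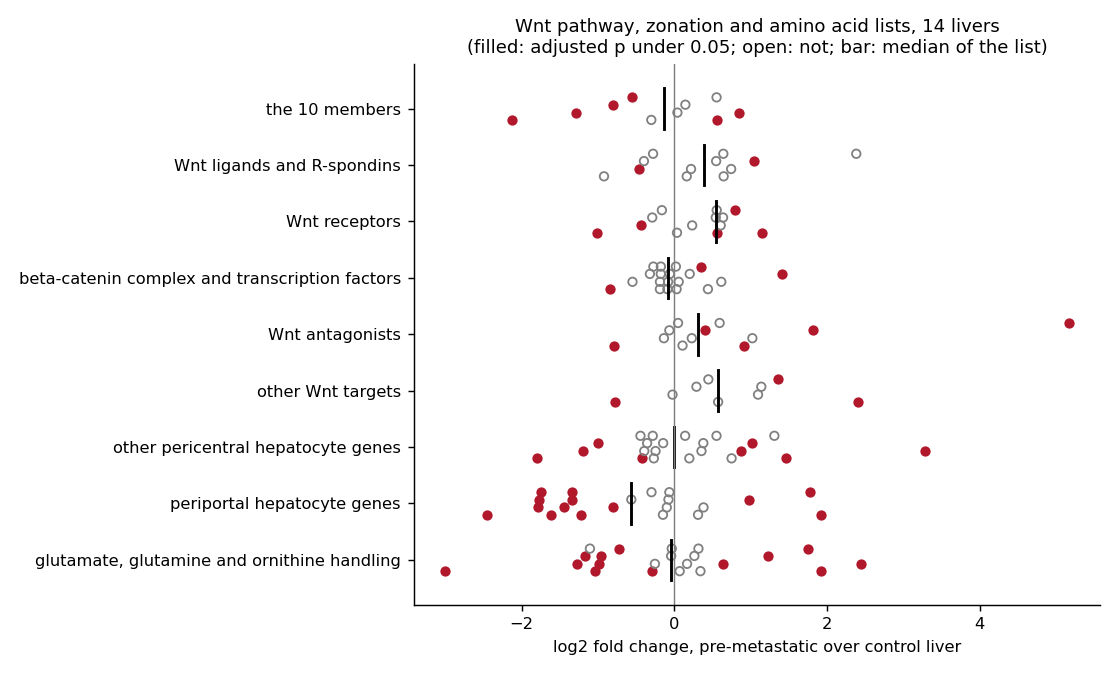
Log2 fold change between pre-metastatic and control liver (x axis) of every tested gene in each list; filled points passed an adjusted *p* of 0.05, open points did not, and the bars are list medians. Periportal hepatocyte genes have a median of -0.56, and the median of the other pericentral genes is 0.00.

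Zonation genes outside the 10 showed a fall of many periportal genes and a mixed pericentral group. Of 21 periportal genes, 10 fell and 3 rose, beside 13.3% of all genes called lower and 17.7% called higher. Their median log2 fold change was -0.56, beside 0.01 over all genes tested. *Asl*, which encodes an enzyme of the urea cycle, fell from 459 ± 197 to 78.5 ± 34.7 RPKM (-2.45 ± 0.34), and *Sdsl*, a serine dehydratase relative, changed by -1.78 ± 0.33. *G6pc*, the last step of glucose release, and *Ctsc*, a lysosomal protease gene, rose by 1.78 ± 0.58 and 1.92 ± 0.18. In early livers, 12 of the 21 periportal genes fell and 3 rose, beside 1823 genes called lower and 2441 called higher among all 16987. Of 22 other pericentral genes, 4 fell and 4 rose, close to the shares of 13.3% and 17.7% over all genes. *Lhpp* went from 68.1 ± 10.6 to 18.6 ± 4.58 RPKM (-1.80 ± 0.12) and the cytochrome P450 gene *Cyp2c37* from 72.5 ± 28.2 to 30.0 ± 8.97 (-1.19 ± 0.21), whereas *Rgn*, which acts in ascorbate synthesis, rose from 245 ± 60.0 to 638 ± 142 (1.46 ± 0.15) and the dicarboxylate transporter gene *Slc13a3* from 3.01 ± 1.13 to 27.2 ± 11.5 (3.29 ± 0.35).

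Around *Oat* and *Glul*, the genes of glutamate, glutamine, and ornithine handling gave 5 rises and 8 falls among 22 tested. The shares over all genes tested were 17.7% called higher and 13.3% called lower. *Got1*, the cytosolic aspartate aminotransferase, fell from 376 ± 149 to 42.6 ± 50.5 RPKM (log2 fold change -3.01 ± 0.55). *Aldh18a1* and *Pycr1*, which make proline from glutamate, rose by 1.92 ± 0.24 and 1.75 ± 0.52 from levels of 0.146 ± 0.033 and 0.0545 ± 0.0443 RPKM. Whether *Pycr1*, low in control liver, passed the filter only through the pre-metastatic livers was not tested, so its call is no support. *Asns*, which encodes asparagine synthetase, rose by 2.45 ± 0.57. The median of the list was -0.04.

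Among the 9 pre-metastatic livers, *Glul* was set against each of the other 9 genes on log2(CPM + 1) values. The relation with *Tbx3* was the strongest, with Pearson's *r* = 0.892 (exact permutation *p* = 0.00153, adjusted over 9 relations 0.0138) and Spearman's rho = 0.833 (exact permutation *p* = 0.00827, adjusted 0.0744). Without the 2 livers farthest from the median of *Glul*, M10 and M6, *r* was 0.758 over 7 livers and no longer passed (exact permutation *p* = 0.0565, adjusted 0.237). It was 0.788 when the values were centered within clock phase, which did not pass either. The other 8 relations had *r* from -0.532 (*Slc1a2*) to 0.662 (*Axin2*), each with an exact permutation *p* adjusted to 0.212 or more. Over all 14 livers, the genes outside the 10 most like *Glul* were *Hs3st1*, *Cdc20*, *Zfp334*, *Cdc23*, and *Lxn* (Pearson's *r* 0.885 to 0.852), and those most like *Axin2* were *Casc3*, *Msl2*, *Gpatch2l*, *1810021M19Rik*, and *Nrf1* (0.900 to 0.856). These values are given as a description, since the livers share their group and scaling.

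In the primary tumor, *Slc1a2*, *Rhbg*, *Lect2*, and *Lgr5* were close to 0, while *Oat*, *Glul*, and *Znrf3* were still expressed. After TMM scaling, *Glul*, *Oat*, *Rnf43*, and *Znrf3*, which reached 10 counts in 9 of 9 tumors, were called lower against pre-metastatic liver, beside a background of 84.3% of 17827 genes called and 40.5% called lower. The other 6 genes were also called lower, but they passed the filter on low counts only with the help of the livers, where they are high. Their calls are therefore no support. *Rhbg* and *Lgr5* reached 10 counts in 0 tumors, so the filter set their direction. *Lect2*, *Slc1a2*, *Axin2*, and *Tbx3* reached 10 counts in 2, 4, 8, and 8 of 9 tumors. Against control liver, 4 of the 10 genes needed the livers to pass (*Slc1a2*, *Rhbg*, *Lect2*, and *Lgr5*), so their calls are no support. The remaining 6 were called lower, beside 82.3% of 19320 genes called and 38.1% called lower. The 2 comparisons share the tumor libraries. The direction for *Znrf3* turned when libraries were scaled by their totals alone, as in RPKM, and that scaling moved the median log2 fold change of all genes by 1.18 against pre-metastatic liver and by 1.08 against control liver. Calls then split into 12222 genes higher and 3734 lower against pre-metastatic liver, in place of 7800 and 7222.

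**Figure D5:**
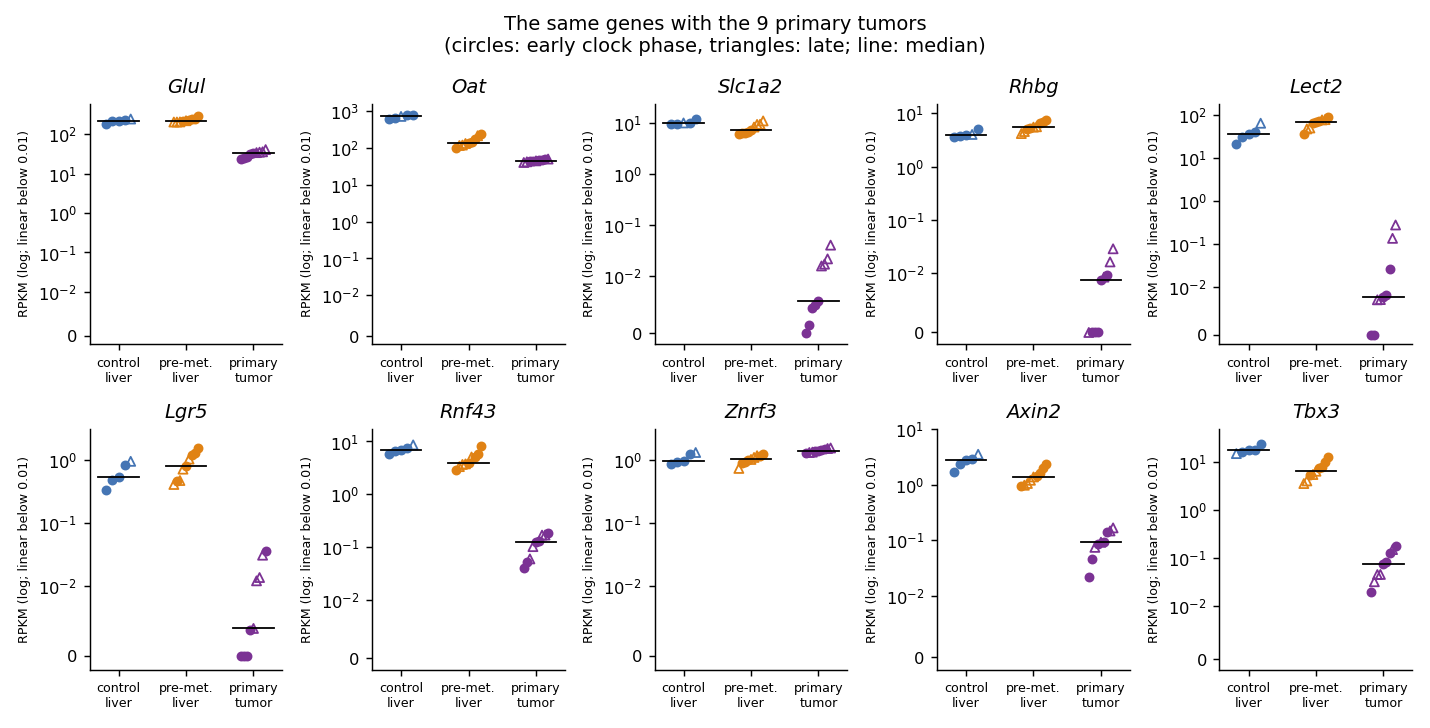
RPKM of the 10 genes (y axis, logarithmic above 0.01 and linear below) in control liver, pre-metastatic liver, and primary tumor; points are libraries, circles early and triangles late by the clock phase of the mouse's liver, and lines are medians. *Znrf3* is at 1.31 to 1.55 RPKM in the tumors, above its values in the pre-metastatic livers on this scale, and lower under TMM scaling.

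*Oat* was the most abundant member in the tumor, at 40.5 (M12) to 50.3 RPKM (M2) with a median of 44.9, and *Glul* followed at 23.5 (M5) to 41.1 (M1) with a median of 32.8. No tumor reached into the range of either liver group for these genes. The log2 fold changes against pre-metastatic liver were -2.93 ± 0.12 and -4.03 ± 0.13 (SE), and against control liver -5.04 ± 0.11 and -3.87 ± 0.13. The *Oat* to *Glul* ratio per gene length was above 1 in 9 of 9 tumors (1.03 to 1.89). *Znrf3* had a median of 1.40 RPKM in the tumors, and its log2 fold changes were -0.72 ± 0.10 and -0.66 ± 0.11 with TMM but 0.47 and 0.42 with library totals.

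Low but counted expression was found for *Rnf43*, *Axin2*, and *Tbx3*, with tumor medians of 0.126, 0.0917, and 0.0751 RPKM and 10 to 64, 6 to 54, and 6 to 52 counts per library. Their summed tumor counts per total were 2.51% (95% counting interval 2.24% to 2.80%), 7.01% (6.17% to 7.94%), and 1.15% (1.01% to 1.32%) of the pre-metastatic level. The TMM fit, which scales the libraries differently, gave lower shares of 1.1%, 3.0%, and 0.524%, outside these counting intervals. *Slc1a2*, *Rhbg*, *Lect2*, and *Lgr5* were close to the floor, at 0 to 29, 0 to 4, 0 to 33, and 0 to 9 counts per tumor. Over all tumors they stood at 0.164% (0.131% to 0.202%), 0.157% (0.0718% to 0.298%), 0.0824% (0.0630% to 0.106%), and 1.27% (0.832% to 1.85%) of the pre-metastatic level, where the intervals cover counting error only. In the TMM fit the shares were 0.0722%, 0.0801%, 0.0373%, and 0.598%, though at such counts a fitted share depends on the prior count. Of the 61 tumor counts of *Lect2*, 33 came from M12, and without that mouse its fitted share was 0.0189%. The tumors of M10 and M12 carried the most RNA of hepatocyte markers, with summed RPKM of 141 and 264 beside 6.43 to 28.4 in the other 7 tumors and 32868 to 65293 in pre-metastatic liver. *Lect2* was also highest in these 2 tumors, at 0.137 and 0.279 RPKM beside 0 to 0.0264, and the part of liver RNA in these values was not tested.

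*Glul* in the tumors was also compared by the clock phase of the mouse, which was chosen after its values were seen. It was at 34.4 to 41.1 RPKM in the 4 late tumors and at 23.5 to 32.8 in the 5 early tumors, without overlap. The tumors did not overlap by phase for *Slc1a2* either, and the share of all genes without such overlap was not counted. For *Glul*, the difference was 0.40 ± 0.12 on the log2 scale and did not pass (SE, edgeR adjusted *p* = 0.469). That comparison called 0 of 18330 genes by edgeR (0.0%), with 1271 at an unadjusted *p* under 0.05. In pre-metastatic liver, the late minus early difference of *Glul* was -0.22 ± 0.11, and the difference between the tissues was 0.65 ± 0.17 (edgeR adjusted *p* = 0.0749). For *Slc1a2*, that difference between tissues was 2.30 ± 0.46 (SE, edgeR adjusted *p* = 0.0258), beside 1.42% of 17827 genes called. It rests on 13 to 29 counts in the late tumors and 0 to 4 in the early ones. The fit did not pair the tissues by mouse, and *Slc1a2* entered it only with the help of its liver counts, so the value is given as a description. The summed hepatocyte markers differed in the same way, at 13.2 to 264 RPKM in late and 6.43 to 10.3 in early tumors, without overlap, and their part was not tested.

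Around the 10 genes, other parts of the Wnt pathway were present in the tumor. Of 10 further Wnt targets, 7 were higher than in pre-metastatic liver and 3 lower, with either scaling. With TMM, 84.3% of all 17827 genes tested were called, 7800 higher and 7222 lower. By library totals, 12222 were called higher and 3734 lower. In this list and those that follow, a gene near 0 in either tissue passed the filter on low counts only through the other tissue. Its direction was set by the filter, and its call is no support. *Ephb2*, a receptor of crypt cells, was at 3.46 ± 0.993 RPKM (SD, n = 9) in the tumor and 0.0234 ± 0.0167 in pre-metastatic liver, and *Ascl2*, a stem cell factor, at 0.543 ± 0.180 and 0.00147 ± 0.00310. *Sp5* and *Tnfrsf19* were lower, at 0.0341 ± 0.0438 and 0.0233 ± 0.0335 RPKM in the tumor beside 0.837 ± 0.189 and 0.989 ± 0.386. Of 13 ligand and secretion genes, 4 were higher and 7 lower (5 and 6 by library totals). *Wnt10a* was at 63.2 ± 16.5 RPKM in the tumor and 0.185 ± 0.340 in pre-metastatic liver, while *Wnt9b* was at 0 counts in all 9 tumors and 45 to 148 counts in pre-metastatic liver. Of 15 receptors, 6 were higher and 7 lower (9 and 6 by library totals). *Fzd2* went from 0.156 ± 0.102 in pre-metastatic liver to 9.31 ± 1.83 RPKM in the tumor, *Lgr6*, a relative of *Lgr5*, from 0.0110 ± 0.0118 to 1.92 ± 0.815, and *Lgr4* from 10.1 ± 2.11 to 1.29 ± 0.228.

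Of 13 Wnt antagonists, 7 were higher and 4 lower in the tumor (8 and 3 by library totals). *Dkk2* and *Apcdd1* were at 41.8 ± 14.2 and 24.0 ± 6.07 RPKM beside 0.0692 ± 0.112 and 0.0946 ± 0.0861 in pre-metastatic liver, while *Notum* and *Nkd1* were at 0.00528 ± 0.00650 and 0.0774 ± 0.0486 beside 7.03 ± 1.32 and 1.38 ± 0.577. Of 20 genes of the beta-catenin complex, 9 were higher and 7 lower with TMM, and 18 and 2 by library totals. *Lef1* went from 0.0342 ± 0.0205 in pre-metastatic liver to 0.908 ± 0.252 RPKM in the tumor and *Tcf7l1* from 1.77 ± 0.656 to 0.162 ± 0.0757. All 22 other pericentral genes and 20 of 21 periportal genes were lower with TMM, and 21 and 20 by library totals. With TMM, 40.5% of all genes tested were called lower. Those list genes that were near 0 in the tumor passed the filter on low counts only through the livers. Their direction was set by the filter, and their calls are no support.

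The tumor and the pre-metastatic liver of a mouse are paired by animal. With the mouse as replicate block, 14929 of 17827 genes were called, in place of 15022 (84.3%). *Glul* and *Oat* changed by -4.05 and -2.89 on the log2 scale. All 10 members were called in the same direction. This is no support for the 6 that passed the filter only with the help of the livers.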

How the data were processed

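Libraries of poly(A) RNA (NEBNext Ultra) came from 5 control livers, 9 pre-metastatic livers, and the 9 primary tumors of the same mice as the pre-metastatic livers. The submitters' processing notes name HISAT2, HTSeq 0.6.0, and the build mm10, with the annotation and strand setting not given in the sources used here. The authors deposited raw counts per gene and RPKM, the count divided by gene length and library total, and RPKM recomputed from the counts differed by at most 1.75e-06 of itself. All 46 columns were matched to samples by mouse and tissue. A symbol on 2 rows (2 symbols, neither a member) was summed.

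Counts were fitted with edgeR 4.0.16 in R 4.3.3 (TMM, two-sided quasi-likelihood test, Benjamini-Hochberg adjustment over all genes tested), without pairing as in the study, on genes that reached 10 counts in 5 or more livers (pre-metastatic against control liver), 9 or more libraries (tumor against pre-metastatic liver), or 5 or more libraries (tumor against control liver). Alternatives were DESeq2 1.42.0, upper-quartile factors, other filters, clock phase, the mouse as block, and leaving out each library. Library totals, the phase fits within a tissue, and the phase difference between tissues were added after the data were seen. Tests on simulated counts for pre-metastatic against control liver recovered 67 of 110 genes changed 1 log2 unit and 77 of 90 changed 2 units, with 7 false calls among 16987 genes. For tumor against pre-metastatic liver, 81 of 113 and 81 of 87 were recovered, with 2 false calls. For tumor against control liver, 64 of 109 and 68 of 91 were recovered, with 1 false call. Relations of *Glul* used Pearson's and Spearman's coefficients over all 362880 pairings of the 9 livers, with Python 3.11.15 and scipy 1.17.1. Without M10 and M6, all pairings of the 7 livers were used, and values centered within clock phase were permuted within phase. A liver was late where the mean standardized *Dbp*, *Per3*, and *Ciart* exceeded that of *Arntl*, *Npas2*, and *Clock*, and a tumor took the phase of its mouse's liver. Deviations from the group mean of a mouse's tumor and liver correlated at -0.051 to 0.188 (mean 0.069, other mice -0.0089) over 17827 genes, and the pairing is that of the animal in the labels. The named genes are the members, up to 4 genes per list with the largest log2 fold change among those with an adjusted *p* under 0.05, and the 5 genes most like *Glul* and *Axin2*, with *Wnt2*, *Wnt9b*, *Rspo3*, and *Thbd* added outside this rule after their values were seen. The members and lists were chosen with earlier results of these data known. Counts limit the precision of single values, and 3 counts were taken as the floor. Within a group, the closest libraries differed by a chi-square of at least 44.5 per degree of freedom, so none was a copy.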

Additional observations from a re-analysis of the deposited data

Results flagged for a closer look

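Among 30 groups of values tested for a sample far from the others, 2 gave one, where chance gives about 1 in 20. *Glul* in the pre-metastatic liver of mouse M5 was at 302.18 RPKM, beside 206 to 248 in the other 8. The TMM factor of that library (1.15) was the highest of the 14 livers, and after TMM scaling M6 was above it, at 787 and 737 CPM (counts scaled to the library total times the TMM factor) for *Glul*. *Lect2* in the tumor of mouse M12 was at 0.27946 RPKM (33 counts), beside 0 to 0.137 in the other tumors, and that tumor also had the highest summed hepatocyte markers (264 RPKM, 0.650% of the median pre-metastatic liver).

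The late minus early difference of *Slc1a2* differed between tumor and pre-metastatic liver by 2.29953 on the log2 scale (SE 0.46, edgeR adjusted *p* = 0.0258). It was 0.56 in pre-metastatic liver. No value for the tumors alone is given, since *Slc1a2* reached 10 counts in the 4 late tumors and in none of the early ones, and so would enter that fit only where it is high. The tumor values rest on 87 counts in 9 libraries, 76 of them in the 4 late tumors. The fit of the difference between tissues did not pair them by mouse, and its value is given as a description.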

How the results depend on the processing

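The members called between the livers numbered 6 with DESeq2, upper-quartile factors, library totals, no filter on low counts, a minimum of 50 counts, and the exact rank-sum test, 5 in early livers, 7 with phase as a covariate, and 5 to 7 with 1 liver left out, while the genes called were 4269 to 5302 with 1 liver left out. The call of *Axin2* was lost in early livers (-0.50), and that of *Rnf43* in early livers (-0.34) and without C5 (-0.53) or C7 (-0.49). *Slc1a2* passed in early livers (-0.60), with phase as a covariate (-0.44), and without M12 (-0.37). *Znrf3*, never called between the livers in these fits, turned sign with library totals (-0.051) and without C1 (-0.0001), C5 (-0.0063), or M6 (-0.021), so its range with 1 liver left out was -0.02 to 0.11. Against the tumors, *Znrf3* turned sign with library totals (0.47 from pre-metastatic and 0.42 from control liver). That scaling differs from TMM only in the library factors, and it also changed the split between the livers from 3009 higher and 2261 lower to 2377 and 2796, and from control liver to tumor from 8541 and 7355 to 12859 and 4130. Upper-quartile factors moved the median of all genes by 0.20 and 0.18 in the tumor comparisons. All 10 members were called in the tumor comparisons in every alternative run. This is no support for those that needed the livers to pass the filter (6 against pre-metastatic and 4 against control liver). The replicate block changed no call among the members (14929 genes, 10 members). The relations of *Glul* that passed fell from 1 to 0 on log2(RPKM + 1) values, where *r* with *Tbx3* was 0.683, within clock phase (0, *r* = 0.788), and without M10 and M6 (0, *r* = 0.758), and the cause was not tested. Depth limited *Slc1a2*, *Rhbg*, *Lect2*, and *Lgr5* in the tumor, at 0 to 33 counts per library.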
